A study of Homo sapiens with 47 samples.

Results

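Mild hypoxia, 5% O2 for 24 h, was examined in 8 small RNA libraries from 2 human prostate cancer cell lines, taken from a series of 47 libraries that spans 6 O2 levels. All 8 libraries labelled with the 5% level were used, and none was left out. PC-3 is labelled as derived from a bone metastasis, and 22Rv1 as a primary line from a subline of the xenograft CWR22R. The groups were PC-3 at 5% O2, PC-3 in its own normoxia (95% air), 22Rv1 at 5% O2 and 22Rv1 in its own normoxia, with 2 libraries each. RPMI-1640 with 10% serum was the medium in all groups, and growing cells were placed in a hypoxia chamber. Hypoxia was run in duplicate per the labels, which do not state separate cultures, and any p-value below refers to the spread among these libraries, which may be technical. Bulk RNA cannot tell fewer expressing cells from less RNA per cell.

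MicroRNAs (miRNAs) are short RNAs that pair with messenger RNAs, mainly through a seed near their 5′ end, and lower the output of those messengers. When oxygen falls, hypoxia-inducible factor (HIF) is stabilised and activates genes that carry its binding letters, and the miRNA best known as its target is miR-210. miR-210 represses iron-sulphur cluster assembly and mitochondrial genes, and its level is widely read as a marker of the HIF response. Atmospheric air holds far more oxygen than most tissues, so 5% O2 is a mild step next to the lower levels of the series.

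The mature sequences of the miRNAs on which the results turn are given first, from RefSeq (GRCh38.p14), with the seed, bases 2 to 8, in capitals. Both arms of the miR-210 hairpin are shown because the major arm gave the 1 call of the comparison over both lines and the minor arm separated 5% O2 from the lower levels.
miR-210-3p: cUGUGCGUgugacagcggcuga
miR-210-5p: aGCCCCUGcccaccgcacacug
Each of these seeds was held by no other tested miRNA with a RefSeq sequence. miR-192-5p and miR-215-5p share 1 seed and are shown because both had positive effects without passing the test.
miR-192-5p: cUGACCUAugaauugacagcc
miR-215-5p: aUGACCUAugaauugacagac
miR-141-3p and miR-200a-3p also share a seed, and are shown because they lay on opposite sides of the call in PC-3.
miR-141-3p: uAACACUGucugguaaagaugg
miR-200a-3p: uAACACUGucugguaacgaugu
miR-27a-5p, miR-20a-5p and let-7b-3p are shown because their effect at 5% O2 differed from that at the lower levels.
miR-27a-5p: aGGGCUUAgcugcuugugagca
miR-20a-5p: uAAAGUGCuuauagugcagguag
let-7b-3p: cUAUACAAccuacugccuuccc

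miR-210-3p maps to chr11:568112-568133 and miR-210-5p to chr11:568150-568171, both on the minus strand, downstream of the start of the host transcript MIR210HG. The 300 bases around that start, 250 before and 50 after it (chr11:568408-568707, minus strand), are printed because the miRNA that rose comes from this transcript. Capitals mark the HIF core letters found on either strand.
MIR210HG promoter: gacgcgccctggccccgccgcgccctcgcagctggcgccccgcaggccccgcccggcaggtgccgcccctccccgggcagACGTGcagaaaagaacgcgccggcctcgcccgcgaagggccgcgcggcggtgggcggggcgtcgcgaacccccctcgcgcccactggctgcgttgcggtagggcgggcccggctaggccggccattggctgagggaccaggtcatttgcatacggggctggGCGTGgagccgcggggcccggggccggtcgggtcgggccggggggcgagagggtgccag
It holds 1 ACGTG at position -170 and 1 GCGTG at position -9 from the start, both on the strand as printed, and the matches do not overlap. ACGTG occurs in 21.4% and GCGTG in 36.5% of 35116 RefSeq promoters of the same length, and 48.4% hold either, both strands counted. The matches describe letters, not binding.

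The 8 libraries held 960421 to 2879542 counts, within the 960421 to 4327382 of the series. The shallowest library of the series was 22Rv1 normoxia replicate 1, and its hypoxia partner held 1035470 counts. Levels are in CPM, the count divided by a library size that was adjusted with edgeR's TMM factors, so that libraries of unequal depth can be set side by side. The lines were described with 2 marker lists. These lists were chosen with earlier results of these data known, so their sums are not an independent check of the line labels. The summed level of 7 markers of androgen receptor-positive prostate lines (arms of miR-148a, miR-375, miR-141 and miR-200c) was 82972 to 155958 CPM in 22Rv1 and 834 to 1135 CPM in PC-3. The 8 PC-3 markers (arms of miR-221, miR-222, miR-31, miR-146a and miR-130a) summed to 50282 to 59855 CPM in PC-3 and 66.3 to 140 CPM in 22Rv1.

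The pair of 22Rv1 libraries with replicate number 1 stood apart. Over miRNAs with at least 20 CPM in the line, the log2 ratio of the hypoxia library to its normoxia partner had an SD of 0.556 in 22Rv1 replicate 1, against 0.198 in 22Rv1 replicate 2, 0.171 in PC-3 replicate 1 and 0.215 in PC-3 replicate 2. In 22Rv1 replicate 1, 79 of 303 miRNAs (26.1%) differed by more than 1.5-fold, against 3 of 303 in 22Rv1 replicate 2, 0 of 296 in PC-3 replicate 1 and 4 of 296 in PC-3 replicate 2. Its median log2 ratio was 0.25, whereas the other 3 pairs had medians within 0.02 of 0. The 5 most abundant miRNAs took 46.1% of the counts in that hypoxia library and 52.99% in its normoxia partner. Results that rest on this pair are given with and without it.

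**Figure D1:**
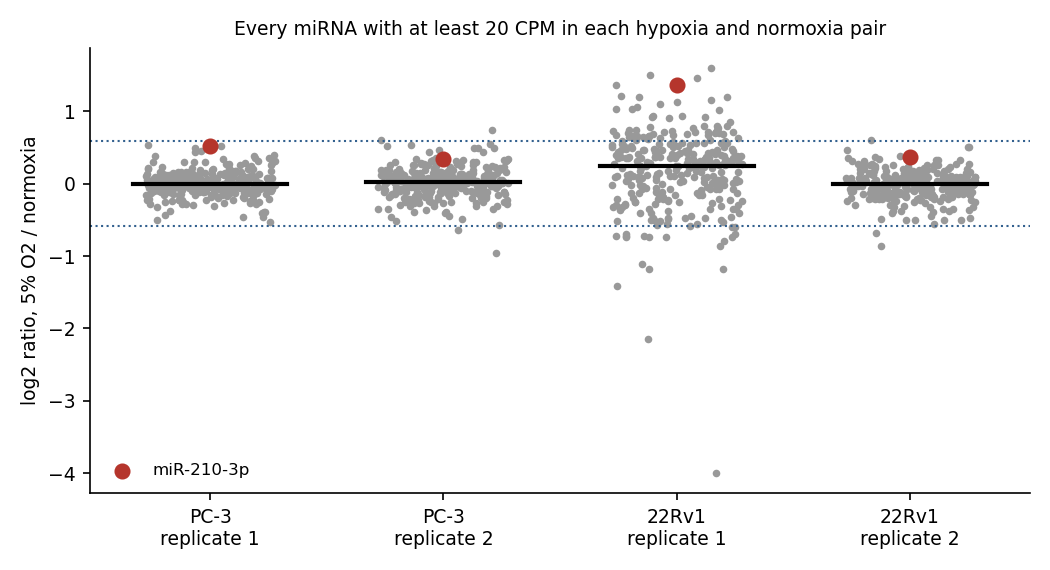
Log2 ratio of each 5% O2 library to its normoxia partner (y axis), 1 grey point per miRNA with at least 20 CPM in the line, for the 4 pairs (x axis). Black bars are medians, dotted lines mark a 1.5-fold ratio, and the red point is miR-210-3p, which was above 0 in all 4 pairs. The spread in 22Rv1 replicate 1 (SD 0.556) exceeded that in the other pairs (0.171 to 0.215).

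The comparison over both lines asked which miRNAs respond to 5% O2, with each hypoxia library set against the normoxia library of the same line and replicate number. miR-210-3p rose, and it was 1 of 473 tested miRNAs (0.211%), the only one, to pass an adjusted p of 0.05 in edgeR's quasi-likelihood test with Benjamini-Hochberg adjustment. In PC-3 it stood at 834 and 953 CPM at 5% O2, against 583 and 754 CPM in normoxia. In 22Rv1 it stood at 2002 and 1354 CPM at 5% O2, against 776 and 1047 CPM in normoxia. Within each line the hypoxia and normoxia libraries did not overlap, and the highest value belonged to hypoxia replicate 1 of 22Rv1. The means were 894 ± 84.5 CPM at 5% O2 and 669 ± 121 CPM in normoxia in PC-3, and 1678 ± 458 CPM at 5% O2 and 912 ± 192 CPM in normoxia in 22Rv1 (SD, n = 2 each).

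Over both lines the miR-210-3p effect was log2 0.64 (standard error 0.137), a 1.56-fold increase with an adjusted p of 0.0265, and the library at 5% O2 was higher in 4 of 4 pairs. The 4 pairs alone, by an exact two-sided sign-flip permutation test, gave p = 0.125, the smallest that 4 pairs can give. The call was lost with DESeq2 (log2 0.62, adjusted p = 0.145) and without the replicate block (log2 0.65, adjusted p = 1). Without 22Rv1 replicate 1 the effect was log2 0.46 with an adjusted p of 7.26e-06. Without any of the other 3 pairs it missed the threshold, with an adjusted p of up to 0.584.

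miR-210-5p, the less abundant arm of the same hairpin, was at 86.9 and 95.4 CPM at 5% O2 in PC-3, against 66.3 and 79.5 CPM in normoxia. In 22Rv1 it was at 210 and 109 CPM at 5% O2, against 131 and 90.9 CPM in normoxia. The groups did not overlap in PC-3 and did in 22Rv1, where replicate 1 was the higher of the pair in both groups. Its effect over both lines was log2 0.39 (standard error 0.124) in 4 of 4 pairs, which did not pass (adjusted p = 0.165).

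**Figure D2:**
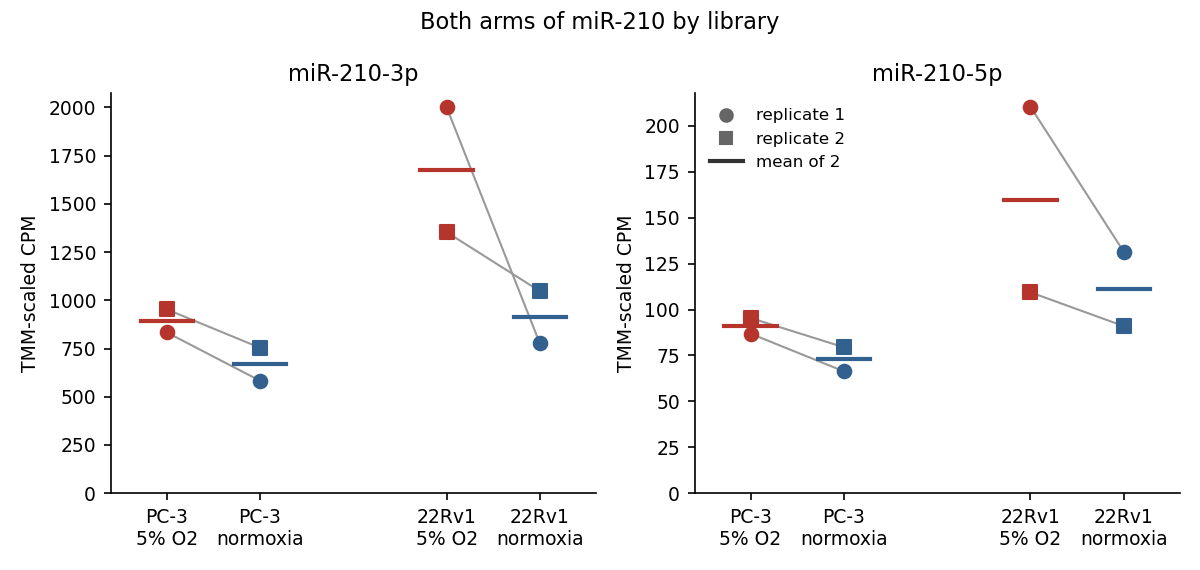
TMM-scaled CPM (y axes, from 0) of miR-210-3p and miR-210-5p in each of the 8 libraries, at 5% O2 (red) and in normoxia (blue), by line. Grey lines join libraries of the same replicate number and short bars are means of 2. Every line runs downward to normoxia, and the steepest one for miR-210-3p is 22Rv1 replicate 1 (2002 against 776 CPM).

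No other miRNA passed over both lines, and none fell. At an unadjusted p under 0.05 there were 14 higher and 10 lower miRNAs, and DESeq2 called 0. The median effect over all 473 was log2 0.04, with 285 above 0. In 39 miRNAs (8.25%) the library at 5% O2 was higher in all 4 pairs, and in 28 (5.92%) it was lower in all 4. Of these, the ones with the smallest p-values and at least 20 CPM are described next, none of which passed the test.

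miR-192-5p, a p53-regulated miRNA that restrains the cell cycle, was at 2379 and 2489 CPM at 5% O2 in PC-3, against 1936 and 2011 CPM in normoxia. In 22Rv1 it was at 1693 and 887 CPM at 5% O2, against 1099 and 825 CPM in normoxia. The PC-3 groups did not overlap, whereas the 22Rv1 groups did. Its effect over both lines was log2 0.33 (standard error 0.118, adjusted p = 0.281), and it passed when 22Rv1 replicate 1 was left out (log2 0.29, adjusted p = 0.0133). Without any other pair miR-192-5p missed the threshold, with an adjusted p of up to 0.998. miR-33b-5p, which lies in an intron of SREBF1 and targets genes of cholesterol export, was at 66.8 and 98.1 CPM at 5% O2 in PC-3, against 53.6 and 82.0 CPM in normoxia. In 22Rv1 the values of miR-33b-5p were 242 and 133 CPM at 5% O2, against 128 and 131 CPM in normoxia (log2 0.35 over both lines, adjusted p = 0.334). miR-542-3p had log2 0.36 (adjusted p = 0.334), with 161 and 154 CPM at 5% O2 in PC-3, against 125 and 126 CPM in normoxia.

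Among miRNAs lower in all 4 pairs, miR-331-5p came closest to the threshold. It was at 27.04 and 28.1 CPM at 5% O2 in PC-3, against 37.5 and 55.4 CPM in normoxia. In 22Rv1 it was at 52.3 and 38.5 CPM at 5% O2, against 61.4 and 50.5 CPM in normoxia. Only the PC-3 groups were free of overlap. Its effect was log2 -0.54 (standard error 0.148, adjusted p = 0.0787), and it passed in 4 of 10 alternative settings and without 22Rv1 replicate 1 (log2 -0.55, adjusted p = 0.0128). Without any other pair miR-331-5p missed the threshold, with an adjusted p of up to 0.981. miR-548ad-5p, miR-548ae-5p, miR-548ay-5p and miR-548d-5p shared identical counts in every library, so they cannot be told apart, and they had log2 -0.49 (adjusted p = 0.165). miR-362-5p had log2 -0.31 (adjusted p = 0.791).

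Without 22Rv1 replicate 1 the comparison over both lines called 7 of 473 miRNAs (1.48%). Higher were miR-210-3p (log2 0.46), miR-141-3p (0.46), miR-192-5p (0.29), miR-99b-5p (0.29) and miR-483-3p (0.78). Lower were miR-331-5p (-0.55) and miR-1247-3p (-1.16). The other 6 besides miR-210-3p were not called with all 4 pairs.

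Each line was then examined by itself, within 1 model that shares the spread between lines. PC-3 had 2 calls among 473 miRNAs (0.423%), both on low counts. miR-141-3p, a miR-200 family member that represses ZEB1 and maintains the epithelial state, had 79 and 20 counts at 5% O2 in PC-3, against 37 and 12 in normoxia. The PC-3 groups overlapped, since each replicate 1 library exceeded its replicate 2 counterpart. Its PC-3 effect was log2 1.17 (standard error 0.273, adjusted p = 0.0219), while in 22Rv1, where it lay between 7410 and 30602 CPM, it was log2 0.13. miR-200a-3p, which has the same seed, was at 1738 and 1798 CPM at 5% O2 in PC-3, against 1776 and 1763 CPM in normoxia. miR-200c-3p, of the same hairpin cluster as miR-141-3p, was at 23.8 and 25.3 CPM at 5% O2 in PC-3, against 24.4 and 20.8 CPM in normoxia. So neither the seed partner nor the cluster partner of miR-141-3p passed the test in PC-3.

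miR-141-3p is also among the markers of 22Rv1. The summed 22Rv1 markers in PC-3 were 1135 and 834 CPM at 5% O2, against 1086 and 849 CPM in normoxia, and their part in the miR-141-3p result was not tested. The lower call in PC-3 was miR-1247-3p, with 16 and 14 counts at 5% O2, against 38 and 44 in normoxia (log2 -1.21, adjusted p = 0.0266). Neither call was kept when any 1 of the 4 pairs was left out. miR-210-3p had log2 0.43 (standard error 0.186) in PC-3 and did not pass (adjusted p = 1).

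In 22Rv1, 3 of 473 miRNAs were called (0.634%). The count was 1 without PC-3 replicate 1 or 2, 0 without 22Rv1 replicate 1 and 35 without 22Rv1 replicate 2, when the widely spread pair alone stood for the line. miR-210-3p rose by log2 0.86 (standard error 0.190, 1.81-fold, adjusted p = 0.00877). It was 2.58-fold higher in replicate 1 and 1.29-fold higher in replicate 2. Without 22Rv1 replicate 1 the effect was log2 0.51 (adjusted p = 0.538), and it also missed the threshold without PC-3 replicate 1 or 2, which share the estimate of the spread (0.89 and 0.86). miR-4521, which is on the list of entries resembling fragments of other RNA classes, fell, with 7 and 50 counts at 5% O2 in 22Rv1, against 30 and 106 in normoxia (log2 -1.18, standard error 0.282, adjusted p = 0.0176). This call was lost whichever of the 4 pairs was left out, with log2 -0.75 (adjusted p = 0.604) without 22Rv1 replicate 1 and -2.19 (adjusted p = 0.161) without 22Rv1 replicate 2.

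The third 22Rv1 call, miR-100-5p, rested on 1 library. It had 38 and 4 counts at 5% O2 in 22Rv1, against 0 and 1 in normoxia, whereas PC-3 held 69070 to 87672 counts in every library. miR-100-5p is known to target MTOR. The 22Rv1 effect was log2 4.97 (adjusted p = 6.33e-06). It gave the only call for a difference between the lines (1 of 473, 0.211%; PC-3 minus 22Rv1 log2 -4.70, adjusted p = 9.64e-05), which was lost without 22Rv1 replicate 1 (log2 -1.91, adjusted p = 0.931). The miR-100-5p line difference was also lost without 22Rv1 replicate 2 (log2 -9.15), when the lines differed for other miRNAs, miR-210-3p among them. In 22Rv1 replicate 1 the PC-3 markers summed to 140 CPM at 5% O2 and 66.3 CPM in normoxia. There miR-100-5p was at 41.4 and 0 CPM. In 22Rv1 replicate 2 the markers summed to 118 and 116 CPM, and miR-100-5p was at 1.64 and 0.358 CPM. The part of these markers in the miR-100-5p result was not tested.

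The line difference for miR-210-3p was log2 -0.43 (PC-3 minus 22Rv1, standard error 0.266, adjusted p = 0.944), so it did not pass with all 4 pairs. Without 22Rv1 replicate 2, which leaves the widely spread pair alone in that line, it was log2 -1.02 and passed (adjusted p = 0.0485). Over the 242 miRNAs with at least 20 CPM in each line, the effects in PC-3 and 22Rv1 had Pearson's r = 0.06 and Spearman's rho = 0.01. These are descriptions across miRNAs, which share libraries and depth and are not independent replicates. Between the 6 combinations of pairs, r ran from -0.07 to 0.22, with 0.19 between the PC-3 pairs and 0.22 between the 22Rv1 pairs.

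**Figure D3:**
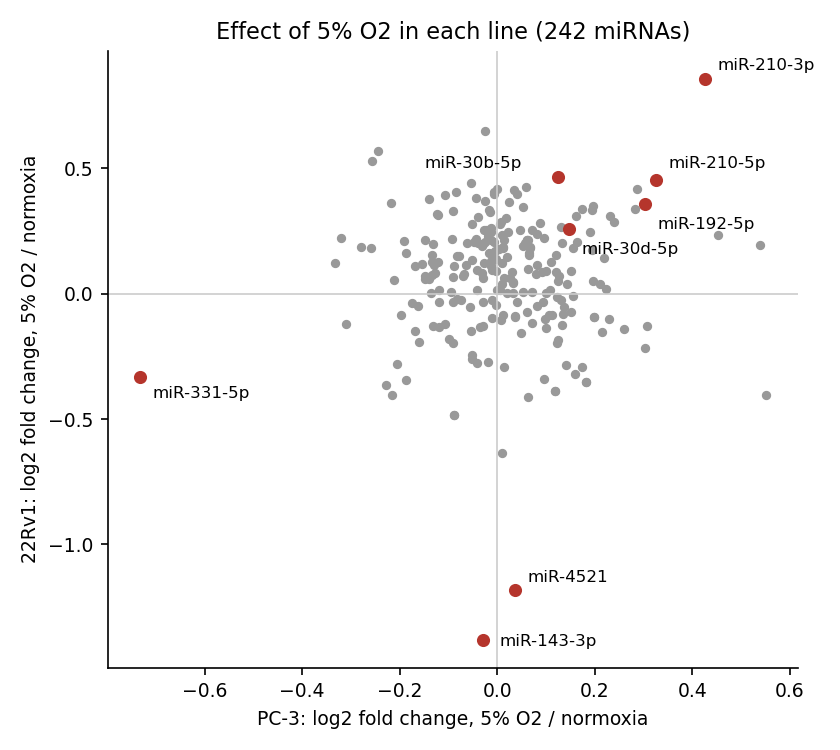
Log2 fold change of 5% O2 over normoxia in PC-3 (x axis) and in 22Rv1 (y axis) for the 242 miRNAs with at least 20 CPM in each line, with named miRNAs in red. miR-210-3p is the highest point (0.43 in PC-3, 0.86 in 22Rv1), while miR-143-3p (-1.38) and miR-4521 (-1.18) lie farther from 0 in 22Rv1. Over all 242 miRNAs r = 0.06.

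Gene lists gave little beyond miR-210. Of the hypoxia-raised list from the literature, 40 of 47 entries passed the filter, of which 1 (miR-210-3p) was called and 25 were above 0. Their median was log2 0.09, against 0.04 over all 473. In 6 members the library at 5% O2 was the higher one in all 4 pairs, next to 8.25% of all tested miRNAs, namely miR-23a-3p, miR-26b-5p, miR-27b-3p, miR-192-5p and both miR-210 arms. miR-27b-3p, linked to vessel sprouting, was at 15580 and 15984 CPM at 5% O2 in PC-3, against 15368 and 15332 CPM in normoxia. In 22Rv1 miR-27b-3p was at 14740 and 7854 CPM at 5% O2, against 9015 and 7380 CPM in normoxia. Nearly all of the miR-27b-3p difference thus lay in 22Rv1 replicate 1 (log2 0.22 over both lines, adjusted p = 0.816).

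The p53-regulated list had 4 of 8 entries past the filter, and 0 were called. All 4 were above 0, next to 285 of all 473, with a median of log2 0.30 (range 0.26 to 0.40). The median log2 ratio of these members varied between pairs with an SD of 0.267. miR-194-5p, which is transcribed with miR-192 on chromosome 11 and with miR-215 on chromosome 1, was at 239 and 270 CPM at 5% O2 in PC-3, against 193 and 243 CPM in normoxia. In 22Rv1 miR-194-5p was at 60.0 and 104 CPM at 5% O2, against 35.6 and 96.7 CPM in normoxia (log2 0.26, adjusted p = 0.816). miR-215-5p, the seed partner of miR-192-5p, had log2 0.40 (adjusted p = 0.727) and miR-34a-5p, a direct p53 target, log2 0.27 (adjusted p = 0.816). miR-215-5p and miR-34a-5p were higher in 3 of 4 pairs, and miR-192-5p and miR-194-5p in 4 of 4.

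None of the other lists held a member called over both lines. The miRNAs reported to target HIF1A, the alpha subunit of HIF, had 10 of 13 entries past the filter, 7 of them above 0, with a median of log2 0.03. The miR-17-92 cluster and its paralogues, which promote proliferation, had 21 of 26 past the filter, 16 above 0 and a median of 0.04. The miR-30 family had 10 of 11 past the filter, 7 above 0 and a median of 0.05. The let-7 family, which restrains RAS and MYC, had 19 of 20 past the filter, 14 above 0 and a median of 0.04. The miR-200 family (9 of 9, 6 above 0, median 0.08) included miR-141-3p, called in PC-3. The androgen receptor-linked list had 17 of 18 past the filter, 13 above 0 and a median of 0.12, and the mesenchymal or basal list 14 of 14, 11 above 0 and 0.09. Medians were log2 0.04 for the miR-23, miR-27 and miR-24 list, 0.01 for miR-15 with miR-16, 0.02 for miR-29, 0.11 for miR-181 and 0.14 for miR-148 with miR-152.

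Markers of other cells were examined in the same way. Stromal and muscle miRNAs had 4 of 8 entries past the filter, 0 called, and were uneven between libraries. Their sum in PC-3 was 1335 and 32.7 CPM at 5% O2, against 1414 and 25.1 CPM in normoxia, and in 22Rv1 62.1 and 166 CPM at 5% O2, against 265 and 193 CPM in normoxia. Its member miR-143-3p stood at 1285 and 15.7 CPM at 5% O2 in PC-3, against 1382 and 13.9 CPM in normoxia. Both replicate 1 libraries of PC-3 were thus high. In 22Rv1 miR-143-3p was at 11.99 and 122 CPM at 5% O2, against 205 and 142 CPM in normoxia. Blood and serum (2 of 9 past the filter, median 0.19), neuronal (7 of 10, 0.09), chromosome 14 cluster (3 of 19, -0.05) and other-RNA lists (7 of 13, 0.09) had 0 calls over both lines.

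How the normoxia controls of the 5% level compared with those of the other levels was tested over all 47 libraries, since each level had its own controls. Of 573 miRNAs tested, 1 was called (0.175%): miR-143-3p, higher by log2 2.95 in the controls of the 5% level (adjusted p = 0.0337). In PC-3 it was at 1421 and 14.1 CPM in these controls, against 9.40 to 31.1 CPM in the controls of the other levels. Without PC-3 replicate 1 the difference was log2 0.11 (adjusted p = 1), and without 22Rv1 replicate 1 it was log2 2.84 and missed the threshold (adjusted p = 0.205). Without 22Rv1 replicate 2 there were 39 calls and without PC-3 replicate 2 there were 3. For miR-210-3p the controls of the 5% level were at 600 and 768 CPM in PC-3, against 450 to 733 CPM in the other controls. In 22Rv1 they were at 774 and 1078 CPM, against 1050 to 1392 CPM, so replicate 1 lay below the range of the other controls. That control difference of miR-210-3p was log2 -0.16 over both lines and did not pass (adjusted p = 0.716).

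The response at 5% O2 was next set against the 5 lower levels, each measured against its own controls in 1 fit over the 47 libraries. In that fit 4 of 573 miRNAs (0.698%) were called at 5% O2, against 13 (2.27%) at 2%, 20 (3.49%) at 1%, 88 (15.4%) at 0.5%, 27 (4.71%) at 0.2% and 61 (10.6%) at 0% O2. Of these, 10 (1.75%) were higher and 3 (0.524%) lower at 2%, and 10 (1.75%) were higher and as many lower at 1%. At 0.5% O2 44 (7.68%) were higher and as many lower, at 0.2% 13 (2.27%) were higher and 14 (2.44%) lower, and at 0% 34 (5.93%) were higher and 27 (4.71%) lower. All 4 calls at 5% O2 were upward: log2 2.67 for miR-100-5p, 0.69 for miR-141-3p, 0.67 for miR-210-3p and 0.36 for miR-192-5p. The effect over both lines is here the mean of the line effects, whereas the fit on the 8 libraries has 1 common effect. In the fit on the 8 libraries miR-100-5p had log2 0.54 (adjusted p = 0.924) and miR-141-3p log2 0.38 (adjusted p = 0.482). The miR-141-3p and miR-100-5p calls rest on the low counts given above.

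The effect at 5% O2 minus the mean effect of the other 5 levels passed for 11 of 573 miRNAs (1.92%), 6 of them positive (1.05%) and 5 negative (0.873%). The count was 3 without PC-3 replicate 2, 5 without 22Rv1 replicate 2, 6 without 22Rv1 replicate 1 and 8 without PC-3 replicate 1. The 5 with a negative difference had effects above 0 at each lower O2 level. miR-210-5p had log2 0.42 at 5% O2, against 1.25, 0.96, 1.52, 1.51 and 1.21 at 2, 1, 0.5, 0.2 and 0% O2. The difference was log2 -0.88 (standard error 0.141, adjusted p = 0.000132), and it was kept without any of the 4 pairs of the 5% level. miR-210-3p, in contrast, was already at log2 0.67 at 5% O2, against 0.86, 0.86, 0.91, 0.97 and 0.87 at 2, 1, 0.5, 0.2 and 0% O2. Its difference was log2 -0.23 and did not pass with all pairs (adjusted p = 0.332), but did without 22Rv1 replicate 1 (log2 -0.51, adjusted p = 0.0042).

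miR-27a-5p, the minor arm of a hairpin of the miR-23a cluster, was at 99.6 and 106 CPM at 5% O2 in PC-3, against 111 and 117 CPM in normoxia. In 22Rv1 it was at 38.2 and 23.8 CPM at 5% O2, against 18.4 and 26.9 CPM in normoxia. It was lower at 5% O2 in 3 pairs and higher in 22Rv1 replicate 1. Its effect was log2 0.06 at 5% O2, against 0.31, 0.52, 1.04, 1.13 and 1.22 at 2, 1, 0.5, 0.2 and 0% O2 (difference -0.78, standard error 0.165, adjusted p = 0.00808). In the fit on the libraries of the 5% level alone its effect was log2 -0.05.

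Arms of miR-30b and miR-30d gave the other 3, from the miR-30 family, which restrains autophagy and epithelial-mesenchymal transition genes. Other members differed in the mean effect of the lower levels. There miR-30a-5p (log2 -0.11), miR-30c-5p (-0.14) and miR-30c-1-3p (-0.28) were called lower, and miR-30a-3p and both miR-30e arms were not called. miR-30b-5p, the more abundant arm of miR-30b, was called higher there (log2 0.36). It had log2 0.29 at 5% O2 in the fit on the 8 libraries, and its level difference did not pass. miR-30d-5p was at 27275 and 22922 CPM at 5% O2 in PC-3, against 23616 and 21593 CPM in normoxia. In 22Rv1 miR-30d-5p was at 21357 and 18842 CPM at 5% O2, against 14368 and 19582 CPM in normoxia. Its effect at 5% O2 was log2 0.23, against 0.50 to 0.65 at the lower levels (difference -0.36, adjusted p = 0.015). miR-30d-3p had log2 0.12 at 5% O2, against 0.45 to 0.79 (difference -0.48, adjusted p = 0.0213). miR-30b-3p had log2 0.12 at 5% O2, against 0.59 to 1.45 (difference -0.73, adjusted p = 0.0146). The 5 negative differences were all kept without 22Rv1 replicate 1. miR-27a-5p was lost without 22Rv1 replicate 2 (-0.47), miR-30b-3p and miR-30d-5p without PC-3 replicate 2 or 22Rv1 replicate 2, and miR-30d-3p without any pair other than 22Rv1 replicate 1. All 5 missed the threshold without the replicate block.

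The 6 with a positive difference had effects below 0 at each lower O2 level. miR-20a-5p, of the miR-17-92 cluster, had log2 0.07 at 5% O2, against -0.38, -0.24, -0.25, -0.37 and -0.42 at 2, 1, 0.5, 0.2 and 0% O2 (difference 0.40, adjusted p = 0.0146). It was at 1786 and 1775 CPM at 5% O2 in PC-3, against 1842 and 1646 CPM in normoxia, and at 1894 and 1544 CPM in 22Rv1, against 1818 and 1511 CPM. let-7b-3p had log2 0.03 at 5% O2, against -0.20, -0.40, -0.58, -0.42 and -0.43 in the same order (difference 0.44, adjusted p = 0.0144). miR-378a-3p (difference 0.31, adjusted p = 0.0471) and miR-4454 (0.48, adjusted p = 0.0333) followed, the second being on the other-RNA list. miR-4461 (1.90) and miR-551b-5p (1.45), with a mean of 3.99 and 8.21 CPM, were the remaining ones. None of the 6 positive differences was kept without 22Rv1 replicate 1 or without 22Rv1 replicate 2. Without PC-3 replicate 2 all but miR-4461 were lost, and without PC-3 replicate 1 miR-4461, miR-4454 and miR-378a-3p were lost.

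**Figure D4:**
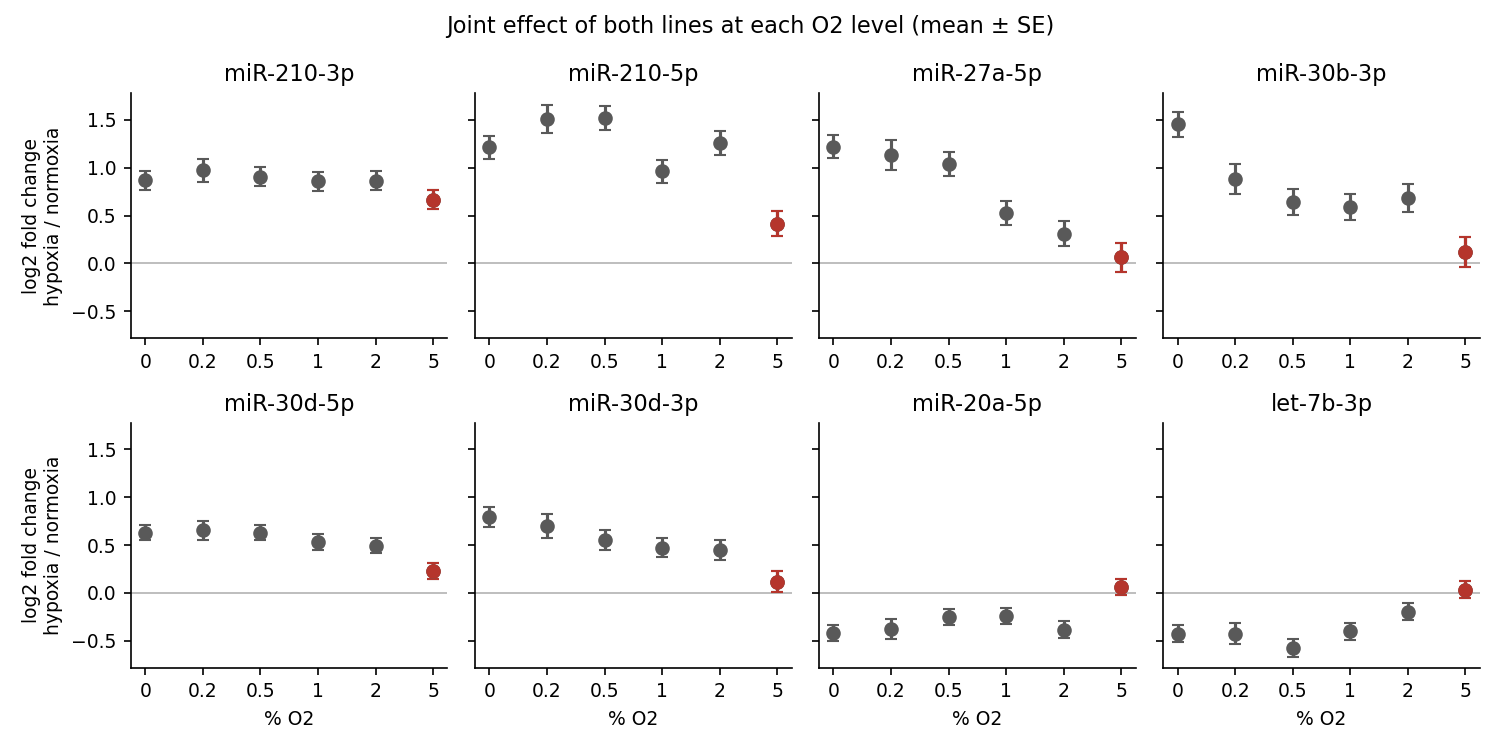
Log2 fold change of hypoxia over normoxia, averaged over both lines, at each O2 level (x axis, 0 to 5%), with 5% in red. Points are estimates and bars standard errors from the fit over 47 libraries. miR-210-3p is at 0.67 at 5% O2 and 0.86 to 0.97 elsewhere, whereas miR-27a-5p and miR-30b-3p are at 0.06 and 0.12 at 5% O2 and reach 1.22 and 1.45 at 0%.

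To see how the wider response looked at 5% O2, miRNAs were grouped by the mean effect of the other 5 levels, an estimate made without the 8 libraries of the 5% level, although the fit shares its spread with them. Of the 74 miRNAs called higher there, 56 were above 0 at 5% O2, with a median of log2 0.10, against a median of 0.23 at the other levels. Of the 69 called lower there, 43 were below 0 at 5% O2, with a median of -0.06, against -0.28 at the other levels. The 330 that were not called had a median of 0.04 at 5% O2, as did all 473. In PC-3 the medians at 5% O2 were 0.07 for the first group and -0.06 for the second. In 22Rv1 they were 0.13 and 0.01.

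Of the 74, 11 were higher in all 4 pairs and 1 was called at 5% O2, and of the 69, 5 were lower in all 4 pairs and 0 were called. Among all 473, 39 were higher and 28 lower in all 4 pairs. An effect beyond 1.5-fold was found for 2 of the 74, 1 of the 69 and 5 of the 330 not called, 8 of 473 in all. Across the 334 miRNAs with at least 20 CPM, the effect at 5% O2 and the mean effect of the other levels had Pearson's r = 0.36 and Spearman's rho = 0.28, given as a description, since miRNAs share libraries and depth.

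**Figure D5:**
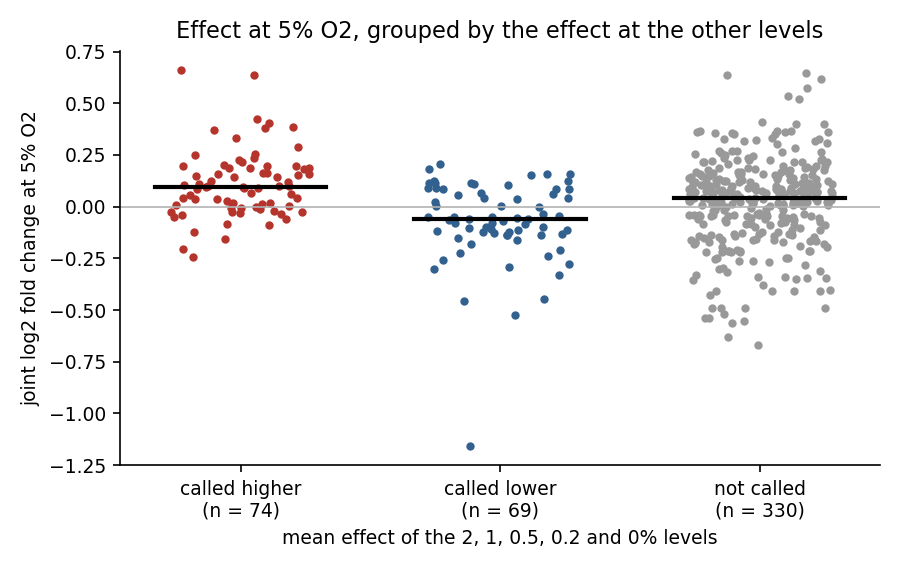
Log2 fold change at 5% O2 over both lines (y axis) for miRNAs grouped by their call at the other 5 levels (x axis). Each point is a miRNA and bars are medians, at 0.10 for the 74 called higher, -0.06 for the 69 called lower and 0.04 for the 330 not called.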

How the data were processed

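Small RNA was prepared with the miRNeasy kit and TruSeq small RNA libraries, and fragments of 140 to 160 bp were cut from a gel, per the labels' protocols. The submitters' processing notes name FastQC and hg19, and which aligner and counter were used is not stated in the labels. The deposited table holds the authors' whole-number read counts for 1006 mature miRNA entries. A second deposited table holds CPM scaled by the authors, and each of its columns equals the counts times 1 constant (relative difference at most 2.55e-09), so it gave the authors' scaling factors only.

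Counts were tested in edgeR 4.0.16 (R 4.3.3) with TMM scaling, robust quasi-likelihood dispersion and Benjamini-Hochberg adjustment, two-sided, calling an adjusted p below 0.05. A miRNA was kept if 4 or more libraries reached 5 CPM (473 kept, and 573 in the fit over 47 libraries). The model had a block for each pair of 1 line and replicate number. The labels do not tie the numbers to shared cultures. Deviations of same-numbered libraries correlated at 0.574 in PC-3 and 0.483 in 22Rv1. The biological coefficient of variation was 11.2% with the block and 23.0% without. The joint fit leaves 3 residual degrees of freedom, so its p-values lean on the spread shared over miRNAs. Ratios per pair used log2 CPM with a prior count of 2. The joint fit had 1 hypoxia effect common to both lines. The model over levels had 1 hypoxia effect per line and level, and its effect over both lines was their mean with equal weight. The 22Rv1 library at 0.2% O2 without a control is absorbed by its block. Scripts were tested on simulated counts.

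miRNAs were named by p and level: at least 20 CPM and 1 sign in 4 pairs over both lines, up to 3 per direction in a line, up to 5 per direction for differences, up to 3 per list, the 5 most abundant of each line, and both arms of miR-210. miR-200a-3p, miR-200c-3p, miR-34a-5p, miR-26b-5p, miR-1247-3p, miR-99b-5p, miR-483-3p, miR-4461 and miR-551b-5p fall outside this rule and were chosen after their values were seen. The same holds for miR-30a-5p, miR-30a-3p, miR-30c-5p and both miR-30e arms. The members and the 21 lists were chosen with earlier results of these data known. Sequences were matched for 410 of the 473 tested miRNAs. Alternatives were other scalings, filters, DESeq2 1.42.0, no or additive blocks, the spread of all 47 libraries, 1 entry per set of identical counts (9 sets, 24 entries), and each pair left out.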

Additional observations from a re-analysis of the deposited data

Results flagged for a closer look

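The effect of 5% O2 on miR-100-5p was lower in PC-3 than in 22Rv1, by a tested difference of -4.70 on the log2 scale (edgeR's quasi-likelihood test with Benjamini-Hochberg adjustment, adjusted p = 9.64e-05). The 22Rv1 libraries held 38 and 4 counts at 5% O2, against 0 and 1 in normoxia, so the difference rested on 1 library. The difference was lost without 22Rv1 replicate 1 and without 22Rv1 replicate 2.

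The effect at 5% O2 differed from the mean effect of the other 5 levels for 9 miRNAs with at least 20 CPM, each tested as a difference in the fit over 47 libraries. Below the other levels were miR-210-5p (-0.88), miR-27a-5p (-0.78), miR-30b-3p (-0.73), miR-30d-3p (-0.48) and miR-30d-5p (-0.36), all log2. Above them were miR-4454 (0.48), let-7b-3p (0.44), miR-20a-5p (0.40) and miR-378a-3p (0.31). None of the 9 passed without the replicate block, and only miR-210-5p was kept whichever of the 4 pairs was left out.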

How the results depend on the processing

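The count over both lines (1) was 3 with DESeq2 size factors in edgeR, library size alone, a filter of 1 CPM, or 1 entry per set of identical counts, 2 with no filter, 4 with the spread of all 47 libraries, and 0 with DESeq2, no replicate block or additive blocks. Without 1 pair it ran from 0 to 7. miR-210-3p over both lines was log2 0.62 (DESeq2), 0.65 (no replicate block) and 0.66 (additive blocks) without passing, and 0.46 to 0.75 without 1 pair. In 22Rv1 it was 0.81 (DESeq2) and 0.88 (no replicate block) without passing, and 0.51 to 1.43 without 1 pair. The PC-3 count (2) was 0 with the authors' factors, no replicate block or 1 pair left out, and 1 with either looser filter, DESeq2 or the spread of all 47 libraries. The 22Rv1 count (3) was 5 with no filter, 0 with DESeq2 or no replicate block, and 0 to 35 without 1 pair. The line difference (1) was 0 with DESeq2 or no replicate block, 3 with 1 entry per identical set, and 0 to 11 without 1 pair. The level difference (11) was 7 with DESeq2, 0 with no replicate block, and 3 to 8 without 1 pair. The control difference (1) was 0 with a filter of 1 CPM and 0 to 39 without 1 pair. Called list members (1) were 0 with DESeq2, no replicate block or additive blocks, 4 with the spread of all 47 libraries, and 0 to 3 without 1 pair. The setting with the spread of all 47 libraries also takes the mean of the 2 line effects in place of 1 common effect. In it miR-31-3p (-0.23), miR-153-5p (-0.28), miR-409-3p (-1.41), miR-494-3p (0.0264) and miR-411-5p (1.32) changed sign. With DESeq2 miR-411-5p did so too (0.0061), and none of these was called. Without 1 pair miR-20a-3p (-0.28 to 0.0677), miR-29c-3p (-0.10 to 0.21), miR-199a-3p and miR-199b-3p (-0.0374 to 0.46), miR-153-5p (-0.15 to 0.25), miR-409-3p (-0.0142 to 0.29) and miR-411-5p (-0.0859 to 0.0171) did so. The causes were not tested. With 2 pairs a line, leaving out 1 pair leaves 1, assumed to vary like the other line's.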
